A study of Mus musculus with 12 samples.

Results

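Bone morphogenetic protein (BMP) signalling was followed in plucked mouse skin through 10 genes: the ligands Bmp2, Bmp4, Bmp6 and Bmp7, the secreted antagonists Nog and Grem1, the pseudoreceptor Bambi, and the target genes Id1, Id2 and Id3. They are 10 of the 20887 genes with a named probe on a one-colour Agilent microarray, and 11 of its 55681 probes are annotated to their RefSeq transcripts. The 12 arrays each held skin RNA of 1 male mouse of mixed C57Bl6/129Sv background, taken 12 days after the hair was plucked, so every group had been plucked. The cKO mice lacked Sox4, a transcription factor of the SoxC family, in skin by conditional knockout, and the labels used here do not name the driver of the deletion. In Exp 1 there were 3 cKO mice aged 68 to 72 weeks and 3 WT mice aged 69 to 72 weeks. In Exp 2 there were 3 cKO mice aged 16 to 18 weeks and 3 WT mice aged 18 to 20 weeks. Age and experiment cannot be told apart. The study asked what Sox4 contributes to hair regeneration and to activation of follicle stem cells.

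BMP ligands are secreted dimers that bind type I and type II receptor kinases, which phosphorylate Smad1, Smad5 and Smad9. These Smads join Smad4 and switch on target genes, among which the Id genes respond directly in many cell types. Noggin and gremlin trap ligands outside the cell, and Bambi resembles a type I receptor that has no kinase. In hair follicles, BMP signals from dermis, fat and the bulge niche hold stem cells at rest, noggin from the follicle mesenchyme opposes them when growth starts, and BMP signalling in the growing follicle is needed for hair shaft differentiation. Id proteins have a helix-loop-helix but no DNA-binding region, and they hold E proteins such as Tcf3 away from DNA.

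RefSeq promoters, each from 250 bases before to 50 after a transcription start, were at hand for 5 of the 10 genes (Bmp4, Bmp6, Grem1, Id2 and Id3) on build GRCm38.p6. The 3 below are shown because Grem1 was one of the genes whose level differed between groups and because Id2 and Id3 are the targets read out. Capitals mark GGCGCC (a GC-rich Smad element that is its own reverse complement), CAGAC or its reverse complement GTCTG (the Smad box), and ACAAAG or CTTTGT (a core that Sox factors bind).
Grem1, chr2:113758599-113758898, minus strand: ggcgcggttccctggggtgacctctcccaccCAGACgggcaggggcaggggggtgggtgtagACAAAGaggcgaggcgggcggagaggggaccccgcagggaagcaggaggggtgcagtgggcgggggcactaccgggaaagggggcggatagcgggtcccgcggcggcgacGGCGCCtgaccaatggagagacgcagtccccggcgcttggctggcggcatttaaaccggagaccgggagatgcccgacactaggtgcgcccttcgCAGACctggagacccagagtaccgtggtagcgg
Id2, chr12:25096043-25096342, minus strand: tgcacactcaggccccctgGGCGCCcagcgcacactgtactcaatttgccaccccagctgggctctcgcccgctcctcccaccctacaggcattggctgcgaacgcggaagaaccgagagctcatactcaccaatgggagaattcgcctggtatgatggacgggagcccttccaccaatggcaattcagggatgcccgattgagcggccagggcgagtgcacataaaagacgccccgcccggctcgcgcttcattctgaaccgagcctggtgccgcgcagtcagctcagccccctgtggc
Id3, chr4:136143572-136143871, plus strand: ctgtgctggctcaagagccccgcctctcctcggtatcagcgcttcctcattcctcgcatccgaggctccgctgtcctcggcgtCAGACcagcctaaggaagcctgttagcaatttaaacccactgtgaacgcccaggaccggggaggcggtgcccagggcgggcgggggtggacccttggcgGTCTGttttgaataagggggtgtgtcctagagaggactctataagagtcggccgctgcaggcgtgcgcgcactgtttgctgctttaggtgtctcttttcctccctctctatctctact
Counted from the start site, GGCGCC lay at -78 in Grem1 and at -231 in Id2. The Smad box lay at -219 and at 17 in Grem1 and at -167 and -68 in Id3. Grem1 also held ACAAAG at -188, and none of these matches overlapped another. Over all 32851 promoters of this length, searched on both strands, 11.9% held GGCGCC, 49.6% held the Smad box and 18.7% held the Sox core. TATAAA, held by 13.6% of them, had no match in any of the 5 promoters. The matches describe these windows alone and carry no measurement of binding.

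Levels are the log2 of the scanner's background-subtracted signal minus that of the same array's 75th percentile, so a difference of 1 is a 2-fold change of signal. Levels of different genes come from different probes and are not compared with each other. Of the 10 genes, 9 had a probe well above background on 12 of 12 arrays. The Bambi probe was well above background on 0 of 12 arrays, with a signal of 2.89 to 6.89, where the lowest signal called well above background ran from 11.3 to 21.9 by array. A second Bmp4 probe was also well above background on 0 of 12 arrays (signal 3.51 to 5.84), while the Bmp4 probe used here had a signal of 2062 to 6790. Bambi therefore has no level here, and 9 genes were tested. The array gives no cell counts, so fewer cells of a type and less RNA per cell cannot be told apart in any result that follows.

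The arrays had a 75th percentile signal of 364 to 554 and 53.9% to 62.6% of probes well above background. By mouse, mean levels were 6.46 to 8.37 for 7 keratinocyte markers (among them Lor, Krt5 and Krt10). They were 3.08 to 5.76 for 11 hair matrix and shaft markers (among them Krt71, Krt27 and Krt25). Of the latter list, Shh was well above background on 2 of 3 arrays in cKO mice of Exp 1. Lef1 ran from -1.10 to 2.69 in those mice, and from 2.24 to 3.13 in WT mice of Exp 1. Whether every mouse held growing follicles was not tested. The level of Sox4 was -4.26 to -2.55 in the 6 cKO mice, against 1.90 to 2.43 in the 6 WT mice, which matched all 12 genotype labels. In cKO mice of Exp 1 the Sox4 probe was well above background on 1 of 3 arrays. In cKO mice of Exp 1, mouse 5 stood apart from mice 2 and 6: it was lowest of 12 in 20.8% of all genes, and its hair matrix markers averaged 3.08, against 5.05 and 5.39 in the other mice of its group. Skeletal muscle markers also split the arrays: 15 of 15 were measured, and their summed signal was 2560 to 26028 in cKO mice of Exp 1, 1258 to 2693 in WT mice of Exp 1, 553071 to 1158110 in cKO mice of Exp 2 and 8800 to 1106230 in WT mice of Exp 2. Only WT mouse 5 of Exp 2 lay low among the younger mice.

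Among the 9 genes, the calls fell on the 2 secreted antagonists. Nog, which encodes noggin, was lower in the older than in the younger cKO skin, and Grem1, which encodes gremlin, was higher. These were the 2 of 9 genes called in cKO skin between the experiments by limma, at a Benjamini-Hochberg adjusted p under 0.05 over the 16183 genes tested, where 9.98% of all genes were called. The comparison of cKO with WT called 0 of the 9, averaged over the experiments, in Exp 1 or in Exp 2. Of all genes it called 0.420%, 0.117% and 0.0618%, so 0 of 9 lies near the share of all genes.

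**Figure D1:**
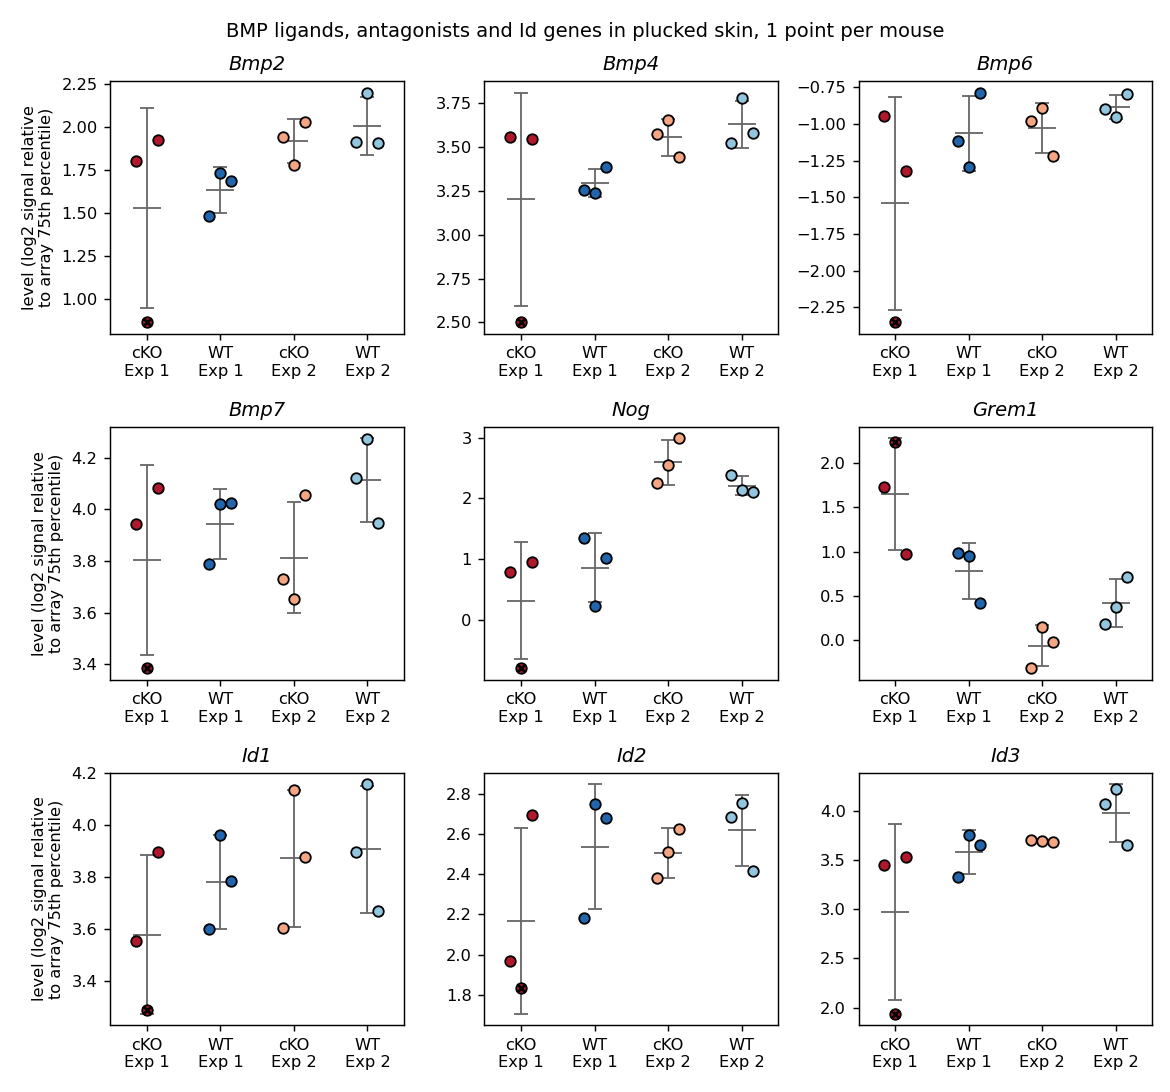
Level of each of the 9 detected genes (y axis, log2 signal minus the array's 75th percentile) in the 4 groups (x axis), 1 point per mouse, with the mean and SD of 3 mice as bars and a cross on cKO mouse 5 of Exp 1. Nog is low in both groups of Exp 1 and high in both groups of Exp 2, Grem1 is highest in cKO mice of Exp 1 (0.98 to 2.23), and the other 7 genes overlap between cKO and WT in each experiment.

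Nog had levels of 0.79, -0.79 and 0.96 in cKO mice 2, 5 and 6 of Exp 1, against 2.25, 2.55 and 2.99 in cKO mice 1, 3 and 4 of Exp 2. In WT mice its levels were 1.34, 0.23 and 1.02 in Exp 1, against 2.39, 2.14 and 2.11 in Exp 2. All 6 older mice lay below all 6 younger ones. In raw signal, Nog read 211 to 862 in cKO mice of Exp 1 and 2640 to 3578 in cKO mice of Exp 2. Among cKO mice Nog was 4.84-fold lower in Exp 1 than in Exp 2 (log2 difference -2.28, SE 0.44, 95% interval -3.24 to -1.31, adjusted p = 0.019, n = 3 each). Among WT mice it differed by -1.35 (SE 0.44, 95% interval -2.32 to -0.38), which did not pass the threshold (adjusted p = 0.136, unadjusted p = 0.011). The test of whether these 2 differences differ, the interaction of genotype and experiment, gave -0.93 (SE 0.62, adjusted p = 1), so the differences in the 2 genotypes were not shown to differ.

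By group mean, the order of Nog was cKO of Exp 2 (2.60 ± 0.37, SD), WT of Exp 2 (2.21 ± 0.15), WT of Exp 1 (0.86 ± 0.57) and cKO of Exp 1 (0.32 ± 0.96). The mice of neighbouring groups overlapped in this order except between WT of Exp 2 and WT of Exp 1. Skeletal muscle signal ran with this split, and the difference in cKO mice was -2.48 with the mean level of the muscle markers as a covariate (adjusted p = 0.199). With that covariate 0 of all genes were called between the cKO groups, against 1615 without it, so the lost call is not particular to Nog. In cKO mice the muscle levels did not overlap between the experiments (-2.69 to 0.78 in Exp 1, 4.78 to 6.01 in Exp 2). The covariate could therefore hardly part muscle from experiment there. Of the WT mice of Exp 2, mouse 5 had a muscle level of -0.77 and a Nog level of 2.14. WT mice 4 and 6 had muscle levels of 4.95 and 5.84 and Nog levels of 2.39 and 2.11. That is 1 mouse, and no conclusion is drawn from it. Dermal papilla markers, from the mesenchyme in which noggin is known to be made, averaged -1.08 to -0.37 in cKO mice of Exp 1, against -0.36 to -0.08 in cKO mice of Exp 2. Of 13 such markers 1 was called, Fgf10 (-1.53, adjusted p = 0.0245), a share no larger than the 9.98% of all genes. Their median difference was -0.57, beside 0.03 over all genes, and 10 of 13 were negative, as were 47.1% of all genes. In WT mice dermal papilla markers averaged -0.30 to 0.01 in Exp 1 and -0.17 to 0.01 in Exp 2, with 0 of 13 called. The part of these cell types in the Nog difference was not tested beyond that covariate.

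Grem1 had levels of 1.72, 2.23 and 0.98 in cKO mice 2, 5 and 6 of Exp 1, against -0.31, 0.15 and -0.01 in cKO mice 1, 3 and 4 of Exp 2. Its levels in WT mice were 0.98, 0.95 and 0.42 in Exp 1, against 0.19, 0.37 and 0.71 in Exp 2. The cKO groups did not overlap, and the WT groups did. Between cKO mice Grem1 was 3.25-fold higher in Exp 1 than in Exp 2 (log2 difference 1.70, SE 0.30, 95% interval 1.04 to 2.36, adjusted p = 0.0166, n = 3 each). Between WT mice the difference was 0.36 (SE 0.30, 95% interval -0.30 to 1.02, adjusted p = 0.565). The raw signal of Grem1 was 779 to 1711 in cKO mice of Exp 1 and 446 to 601 in cKO mice of Exp 2.

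Within the experiments, Grem1 ran in opposite directions with genotype. In Exp 1 the difference of cKO from WT was 0.86 (SE 0.30, 95% interval 0.20 to 1.52, unadjusted p = 0.0154, adjusted p = 0.333), and the mice of the groups overlapped, as they did for all 9 genes in Exp 1 (12.9% of all genes had groups without overlap). In Exp 2 it was -0.48 (SE 0.30, 95% interval -1.14 to 0.18, adjusted p = 0.977), and the groups did not overlap, the highest cKO mouse standing at 0.15 and the lowest WT mouse at 0.19. The interaction was 1.34 (SE 0.42, 95% interval 0.41 to 2.27), with an unadjusted p of 0.00917 and an adjusted p of 1, so a difference between the experiments did not hold after correction. Of the 9 genes limma called 0 for the interaction and 1, Grem1, passed an unadjusted p under 0.05, where 0.00618% and 3.16% of all genes did. The groups ranked, by mean Grem1, cKO of Exp 1 (1.64 ± 0.63, SD), WT of Exp 1 (0.78 ± 0.32), WT of Exp 2 (0.42 ± 0.27) and cKO of Exp 2 (-0.06 ± 0.24), and the only neighbours that did not overlap were the cKO and WT groups of Exp 2.

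Markers of several cell types differed in the same comparison of cKO mice, in which 5.38% of all genes were called higher and 4.60% lower. Of 7 keratinocyte markers 5 were called higher in cKO mice of Exp 1 than in those of Exp 2 (summed signal 643717 to 1100700, against 529412 to 612079), among them Krt14 (1.15, adjusted p = 0.0306) and Krt5 (0.73, adjusted p = 0.0448), the keratins of the basal layer. Of 7 dermal fibroblast markers 2 were called lower, Pdgfra (-0.86, adjusted p = 0.0293) and Dpt (-1.08, adjusted p = 0.0355). Of 8 macrophage and lymphocyte markers 4 were called, the T cell genes Cd3g (1.64, adjusted p = 0.0182) and Cd3d (0.95, adjusted p = 0.043) higher and the macrophage genes Mrc1 (-0.97, adjusted p = 0.0253) and Csf1r (-0.61, adjusted p = 0.0392) lower. By limma 0 were called of 9 adipocyte markers (median difference -1.68), 9 melanocyte markers (-1.21), 11 hair matrix and shaft markers (-0.89) and 7 endothelial markers (-0.01), beside a median of 0.03 over all genes. At an unadjusted p under 0.05, which 28.2% of all genes passed, there were 6 adipocyte, 0 melanocyte, 3 hair matrix and shaft and 2 endothelial markers. Melanocyte markers averaged 0.14 in cKO mouse 5, against 2.32 and 3.16 in cKO mice 2 and 6. In cKO mice of Exp 2 they averaged 2.73 to 3.05. Hair matrix and shaft markers averaged 3.08 in mouse 5, against 5.05 and 5.39, and at least 5.29 in Exp 2. Adipocyte markers averaged 0.88 in mouse 5, against 3.15 and 3.56, and 3.58 to 4.43 in Exp 2. The medians of these lists include the low values of mouse 5 and were not computed without it. All 15 muscle markers were lower, and 12 of 15 were called. The Grem1 difference was 1.76 with muscle as a covariate (limma adjusted p = 0.196), a setting in which 0 of all genes were called in cKO mice. The part of these cell types in the Grem1 difference was not tested further.

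Both antagonist calls had limits. Under 24 alternatives the sign held in 24 of 24 for Nog and for Grem1. Where a WT mouse was left out, the filter was dropped or probes were averaged, both differences were as reported (-2.28 and 1.70). Their sign could not turn in those alternatives, where only the SE and the adjusted p could move. Leaving aside the values within slide 2, the call held in 15 of 23 for Nog and in 17 of 23 for Grem1. Within slide 1, which held 2 cKO mice of Exp 1 and 1 of Exp 2, Nog differed by -1.38 (adjusted p = 0.31) and Grem1 by 1.66 (adjusted p = 0.264), and within slide 2 by -3.78 and 2.25. The values of slide 2 set 1 mouse, cKO mouse 5, which was lowest of 12 in most of the 9 genes, against 1 other, cKO mouse 4, and the only residual degree of freedom there came from WT mice 4 and 6, so they are given with no test.

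**Figure D2:**
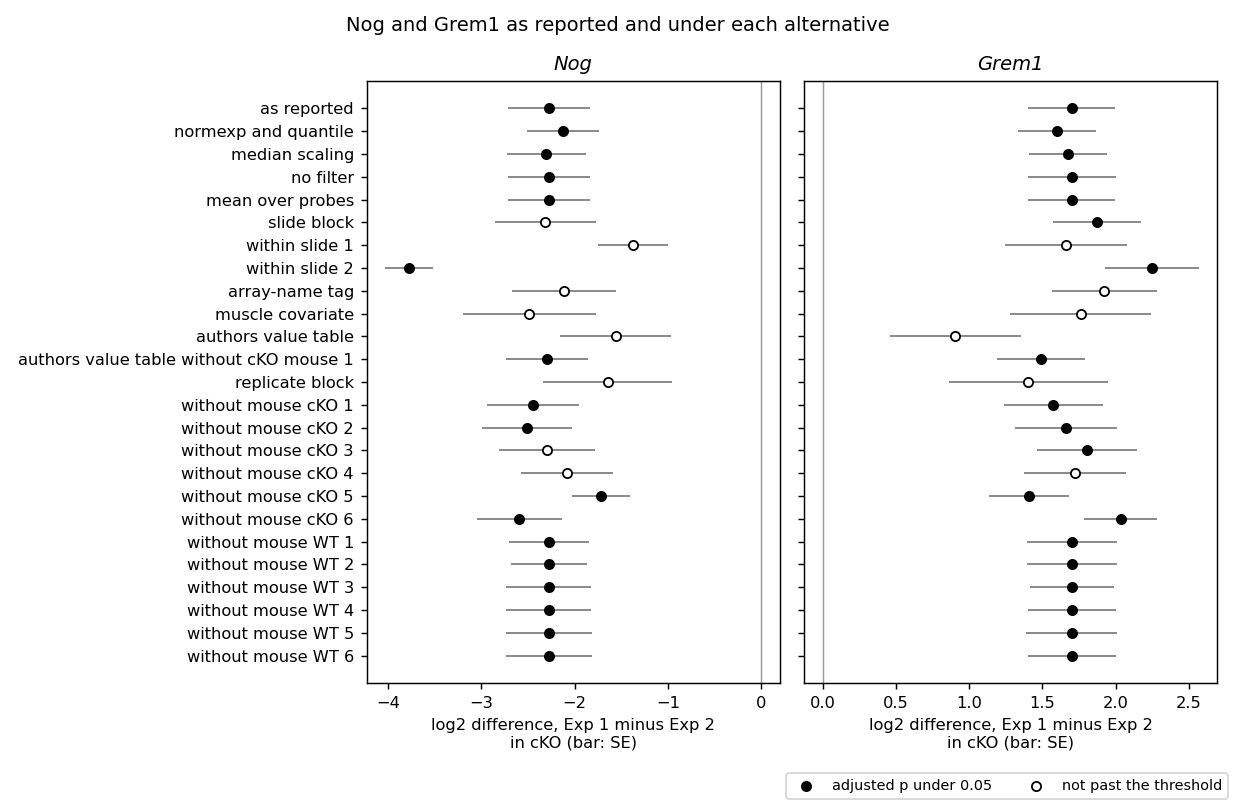
Log2 difference of Exp 1 from Exp 2 in cKO mice (x axis, bars are SE) for Nog on the left and Grem1 on the right, as reported and under each alternative (y axis), filled where the limma adjusted p was under 0.05. The points within slide 2 compare 1 mouse with 1 other, and their fill and SE rest on 1 residual degree of freedom. All points lie on the same side of 0 for each gene, from -3.78 to -1.38 for Nog and from 0.90 to 2.25 for Grem1.

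The ligands did not differ past the threshold in any of the 6 comparisons. Bmp2, a ligand of dermis, fat and hair matrix, averaged 1.53 ± 0.58 in cKO and 1.63 ± 0.13 in WT mice of Exp 1, and 1.92 ± 0.13 in cKO and 2.01 ± 0.17 in WT mice of Exp 2 (SD, n = 3 each). Bmp4, made by dermal papilla and dermis, averaged 3.20 ± 0.61 in cKO and 3.30 ± 0.08 in WT mice of Exp 1, and 3.56 ± 0.11 in cKO and 3.63 ± 0.13 in WT mice of Exp 2. Both were close in cKO and WT skin: averaged over the experiments, the difference of cKO from WT was -0.10 (SE 0.17, 95% interval -0.48 to 0.28, adjusted p = 0.846) for Bmp2 and -0.08 (SE 0.17, 95% interval -0.47 to 0.30, adjusted p = 0.87) for Bmp4. Neither interval reaches beyond -0.48 or 0.30.

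In WT skin the older mice lay below the younger ones without overlap for both: Bmp2 read 1.48, 1.73 and 1.69 in Exp 1 against 1.91, 2.20 and 1.91 in Exp 2, and Bmp4 read 3.26, 3.24 and 3.39 against 3.53, 3.78 and 3.58. The differences of -0.37 (SE 0.24, adjusted p = 0.449) and -0.33 (SE 0.24, adjusted p = 0.508) did not pass the threshold. With Nog, these were 3 of 9 genes whose WT groups did not overlap, all lower in Exp 1, where 27.9% of all genes had groups without overlap and 13.4% were lower without overlap. By limma 0 of the 9 were called between the WT groups, and 1 (Nog) at an unadjusted p under 0.05, where 0.840% and 18.5% of all genes were called.

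Bmp6, which keratinocytes of the bulge niche secrete, averaged -1.54 ± 0.73 in cKO and -1.06 ± 0.26 in WT mice of Exp 1, and -1.03 ± 0.17 in cKO and -0.88 ± 0.08 in WT mice of Exp 2. Averaged over the experiments it differed by -0.31 in cKO from WT (SE 0.21, 95% interval -0.78 to 0.15, adjusted p = 0.571). Bmp7, expressed in follicle epithelium and mesenchyme, averaged 3.80 ± 0.37 in cKO and 3.94 ± 0.13 in WT mice of Exp 1, and 3.81 ± 0.21 in cKO and 4.11 ± 0.16 in WT mice of Exp 2. Its averaged difference was -0.22 (SE 0.13, 95% interval -0.52 to 0.08, adjusted p = 0.533). Between the experiments Bmp7 differed by -0.01 in cKO skin (SE 0.19, 95% interval -0.43 to 0.41).

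Among the targets Id3 had the smallest p in the averaged comparison of genotypes. Id3 levels were 3.45, 1.94 and 3.53 in cKO mice 2, 5 and 6 of Exp 1, against 3.33, 3.75 and 3.66 in the WT mice. In Exp 2 they were 3.70, 3.69 and 3.68 in cKO mice, against 4.07, 4.22 and 3.65 in WT mice. The genotypes overlapped in both experiments, and the averaged difference of -0.45 (SE 0.25, 95% interval -1.01 to 0.12, adjusted p = 0.506) included the low value of cKO mouse 5. Without that mouse it was -0.19 (SE 0.12, adjusted p = 0.557). In cKO mice Id3 did not overlap between the experiments (difference -0.72, SE 0.36, adjusted p = 0.221), and this difference was -0.20 without mouse 5.

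Id1 averaged 3.58 ± 0.31 in cKO and 3.78 ± 0.18 in WT mice of Exp 1, and 3.87 ± 0.27 in cKO and 3.91 ± 0.25 in WT mice of Exp 2. Id2 averaged 2.17 ± 0.46 in cKO and 2.54 ± 0.31 in WT mice of Exp 1, and 2.51 ± 0.12 in cKO and 2.62 ± 0.18 in WT mice of Exp 2. The averaged differences of cKO from WT were -0.12 (SE 0.14, 95% interval -0.43 to 0.19, adjusted p = 0.758) for Id1 and -0.24 (SE 0.16, 95% interval -0.60 to 0.12, adjusted p = 0.571) for Id2. Of the 3 targets, Id1 had the narrowest interval, and that of Id3 reached -1.01.

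**Figure D3:**
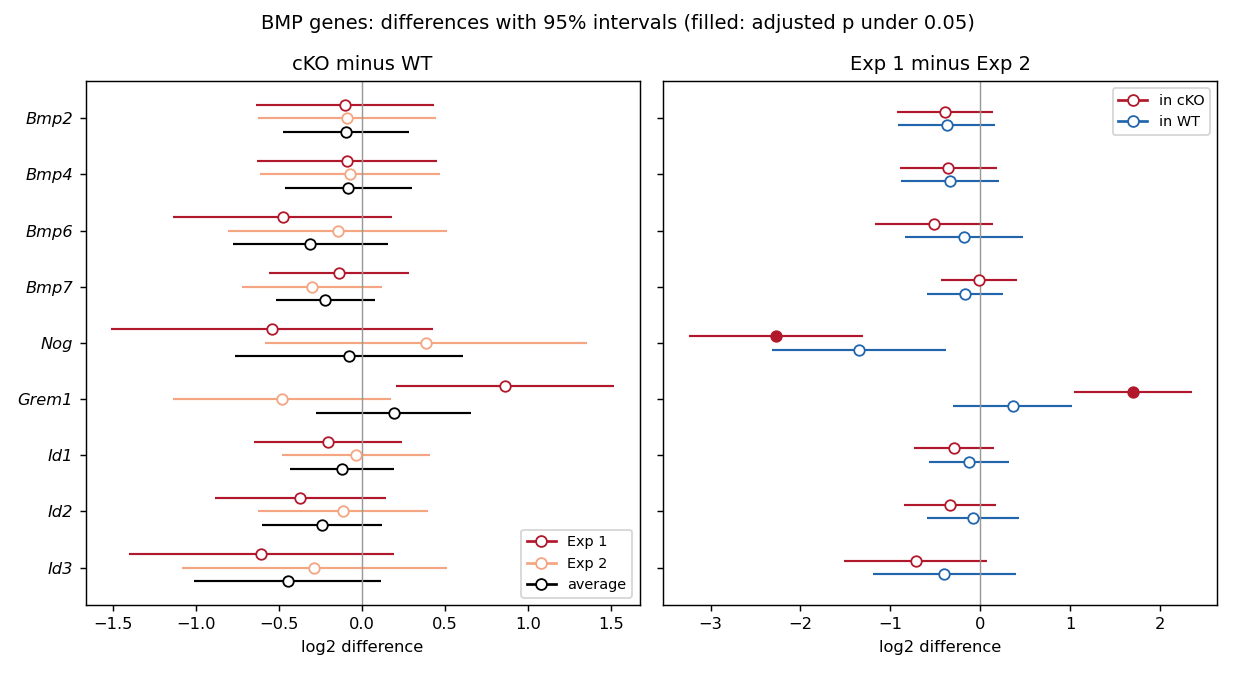
Log2 differences of the 9 genes (y axis) with 95% intervals from limma: cKO minus WT in Exp 1, in Exp 2 and averaged on the left, and Exp 1 minus Exp 2 in cKO and in WT mice on the right, filled where the adjusted p was under 0.05. Filled points are Nog (-2.28) and Grem1 (1.70) in cKO mice, and all points on the left are open.

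Counted over the 9 genes, the averaged comparison of genotypes called 0 by limma and 0 at an unadjusted p under 0.05, where 0.420% and 12.2% of all genes were called. In Exp 1 it called 0 by limma (0.117% of all genes) and 1, Grem1, at an unadjusted p under 0.05 (11.3%). In Exp 2 it called 0 by limma (0.0618%) and 0 at an unadjusted p under 0.05 (4.67%), and Grem1 was the 1 gene whose groups did not overlap (12.6% of all genes, either direction). Sox4, by comparison, differed by a measured -5.54 (adjusted p = 3.76e-09), with its probe well above background on only 1 of 3 arrays in cKO mice of Exp 1. Of the 9 averaged differences 8 were negative, as were 57.7% of those of all genes, with a median of -0.12 for the 9 and -0.04 for all genes. Between the experiments the median was -0.35 in cKO mice, against 0.03 over all genes, and -0.18 in WT mice, against -0.01 over all genes. In cKO mice 3 of the 9 had groups without overlap (Nog, Grem1 and Id3), where 31.2% of all genes did.

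The mouse that carried most of the spread was cKO mouse 5 of Exp 1. It was the lowest of all 12 mice in 8 of the 9 genes and the highest in the other, Grem1, with a mean deviation of -0.53 from its group over the 9. WT mouse 5 of Exp 2 was the highest of 12 in 6 genes. Without cKO mouse 5, the difference of cKO from WT in Exp 1 was 0.23 for Bmp2, 0.26 for Bmp4, 0.07 for Bmp7 and 0.01 for Nog, each opposite in sign to its value with the mouse. Grem1 in Exp 1 was then 0.57 (SE 0.27, adjusted p = 0.629). The differences between the experiments in cKO mice were then -1.72 for Nog (SE 0.31, adjusted p = 0.0305) and 1.41 for Grem1 (SE 0.27, adjusted p = 0.0347), and Nog in WT mice was called (-1.35, SE 0.28, adjusted p = 0.0403) as the shared estimate of the spread narrowed.

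**Figure D4:**
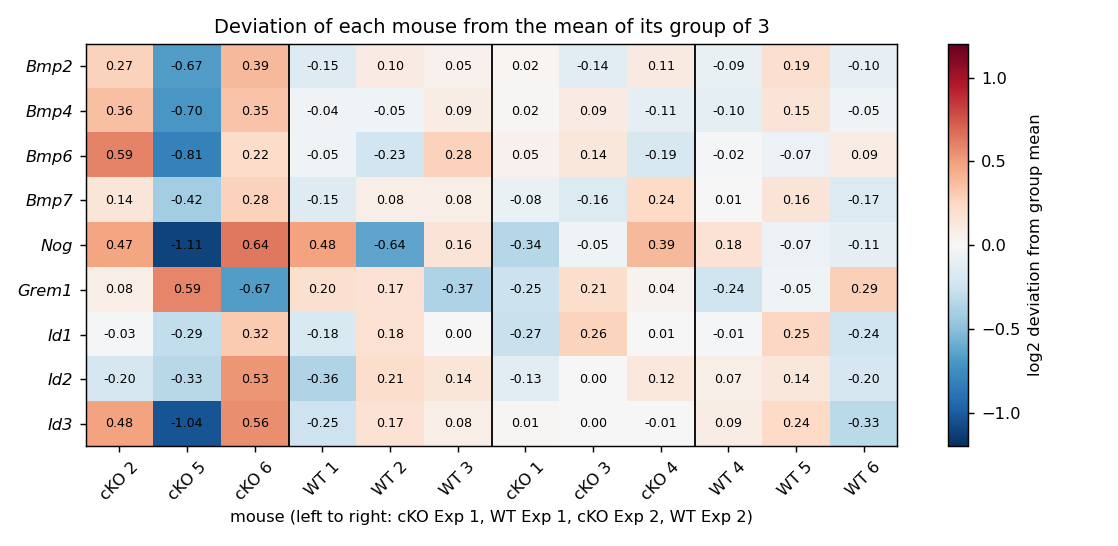
Deviation of each mouse (x axis, grouped by genotype and experiment) from the mean of its group of 3, on the log2 scale, for the 9 genes (y axis), blue for below and red for above. The column of cKO mouse 5 holds the lowest deviations, -1.11 for Nog and -1.04 for Id3, and a deviation of 0.59 for Grem1.

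After each group's mean was taken away, the genes other than Grem1 correlated positively with each other across the 12 mice. Their r ran from 0.23 (Bmp6 with Id2) to 0.95 (Bmp2 with Id3), and Grem1 correlated negatively with each of them. Without cKO mouse 5 some pairs changed sign: Bmp2 with Bmp6 went from r = 0.73 to r = -0.43, and Nog with Id3 from r = 0.66 to r = -0.36. Other pairs kept their sign. The correlation of Bmp2 with Id3 was r = 0.95, and r = 0.71 without cKO mouse 5, and that of Bmp4 with Id3 was r = 0.92, and r = 0.36 without it. The Id genes held together more evenly: Id1 with Id2 gave r = 0.81 and r = 0.75 without the mouse, Id1 with Id3 r = 0.69 both ways, and Id2 with Id3 r = 0.67 and r = 0.69. Bmp2 with Bmp7 gave r = 0.93, and r = 0.87 without the mouse. Grem1 ran against Id2 (r = -0.73, and r = -0.63 without the mouse). Every pair shares its arrays and their scaling, so these are descriptions.

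By the same measure over 12 mice, the genes most like Nog among all genes tested were Ctse (r = 0.97, rho = 0.97), S100a7a (r = 0.97, rho = 0.97) and Dcdc2b (r = 0.97, rho = 0.94). Those most like Grem1 were Ripply2 (r = 0.95, rho = 0.90), Nptx2 (r = 0.95, rho = 0.92) and Nfatc4 (r = 0.95, rho = 0.95). Nearest to Id3 were Tulp3 (r = 0.99, rho = 0.95), Naglu (r = 0.99, rho = 0.97) and Isyna1 (r = 0.99, rho = 0.89). Without cKO mouse 5 the r of these 9 genes ran from 0.91 to 0.94. They were picked for the highest r among all genes on these same mice, so their r is no separate evidence of a link.

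The rest of the BMP pathway gave the same count for genotype: of 8 other ligands, 10 receptors and co-receptors, 10 Smads and inhibitory factors, 15 other antagonists and modulators, and 13 other targets and Id partners, limma called 0 in the averaged comparison, in Exp 1 or in Exp 2. At an unadjusted p under 0.05 there were 5 of 56 in the averaged comparison, 6 in Exp 1 and 5 in Exp 2. Of all genes, 12.2%, 11.3% and 4.67% passed in these 3 comparisons, and limma called 0.420%, 0.117% and 0.0618%. Nearest to the threshold was Tcf3, the E protein that Id proteins bind, which differed by -0.32 in cKO from WT (SE 0.08, adjusted p = 0.131). Gdf10, a BMP3-like ligand, differed by -0.60 (SE 0.18, adjusted p = 0.225). For Smad9, a BMP receptor Smad (adjusted p = 0.354), no difference is given, since its probe was well above background on 0 of 3 arrays in cKO mice of Exp 1. Smad5 differed by -0.19 (adjusted p = 0.379), Id4 by -0.40 (adjusted p = 0.402), the antagonist Bmper by -0.72 (adjusted p = 0.423) and the type II receptor Acvr2b by -0.33 (adjusted p = 0.453). Of the genes named here for their small p, Eng (0.29, adjusted p = 0.428) and Gdf7 (0.29, adjusted p = 0.525) had positive values. By list, positive differences were 4 of 8 ligands, 5 of 10 receptors and co-receptors and 2 of 10 Smads and inhibitory factors. They were 7 of 15 antagonists and modulators, which held the highest (0.54), and 1 of 13 targets and Id partners. Among the 13 targets and Id partners 12 differences were negative, as were 57.7% of those of all genes. Their median was -0.17, beside -0.04 over all genes, and 4 of the 13 (Msx2, Dlx3, Hoxc13 and Foxn1) are also hair matrix markers. The 13 averaged 1.27 in cKO mouse 5 of Exp 1, beside 1.84 and 1.99 in cKO mice 2 and 6 and 1.79 to 2.05 in WT mice of Exp 1. Their signs without cKO mouse 5 were not counted. With a mouse left out, the Bmper difference ran from -0.96 to -0.37.

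Between the experiments, 7 of the 56 other pathway genes tested were called in cKO mice (12.5%, beside 9.98% of all genes) and 2 of 56 in WT mice (3.57%, beside 0.840%). These shares lie near those of all genes in cKO mice, and the genes are given for their own values. Eng, the co-receptor endoglin, was lower in Exp 1 in both: it averaged 0.83 ± 0.22 in cKO mice of Exp 1 and 3.05 ± 0.29 in those of Exp 2 (difference -2.22, SE 0.19, adjusted p = 0.00289), and 0.79 ± 0.02 in WT mice of Exp 1 and 2.51 ± 0.32 in those of Exp 2 (difference -1.73, SE 0.19, adjusted p = 0.01). Chrdl1, a chordin-like antagonist, was lower by -1.61 in cKO mice (SE 0.26, adjusted p = 0.0143) and by -1.43 in WT mice (SE 0.26, adjusted p = 0.0407). The ligands Bmp10 (-2.50, adjusted p = 0.0225) and Gdf5 (-1.87, adjusted p = 0.0196) were lower in cKO mice of Exp 1. Higher there were Inhbb, the activin beta B subunit (0.75, adjusted p = 0.0116), the follistatin-like antagonist Fstl3 (0.58, adjusted p = 0.0401) and Id4 (0.91, adjusted p = 0.0454), where the same difference was -0.29 for Id1, -0.34 for Id2 and -0.72 for Id3, none of them called. Under the 24 alternatives, those within slide 2 included, the signs held but many calls did not. In cKO mice the call held in 20 for Eng, 18 for Chrdl1, 18 for Inhbb, 15 for Bmp10 and 14 for Gdf5. It held in only 6 for Fstl3 and 5 for Id4. In WT mice it held in 18 for Eng and 5 for Chrdl1. Muscle markers fell with the genes that were lower (12 of 15 in cKO mice and 0 of 15 in WT mice called). The part of muscle in these differences was not tested gene by gene.

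**Figure D5:**
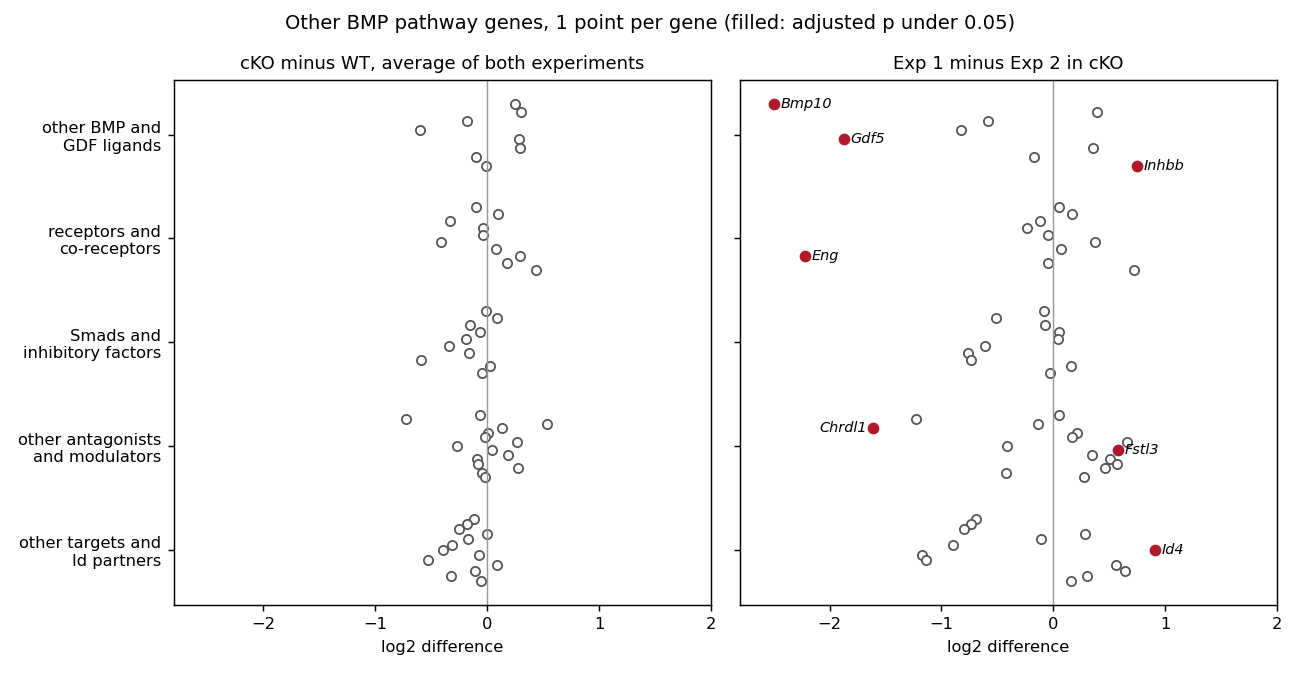
Log2 differences of the other BMP pathway genes tested, 1 point per gene and 1 row per list (y axis): cKO minus WT averaged over both experiments on the left, Exp 1 minus Exp 2 in cKO mice on the right, filled where the limma adjusted p was under 0.05. No point on the left is filled, and on the right 4 filled points are negative (Bmp10, Gdf5, Eng and Chrdl1) and 3 positive (Inhbb, Fstl3 and Id4). Smad9 is drawn at its measured value, although its probe was not well above background in cKO mice of Exp 1.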

How the data were processed

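Total RNA was labelled with Cy3 and hybridised to one-colour Agilent arrays. Per the file headers, Feature Extraction 11.5.1.1 gave the deposited intensity of each spot, background-subtracted and not scaled between arrays, and its quality flags. The deposited log2 value table was used as an alternative: the submitters' processing notes name limma, no source used here gives its further normalization, and its scale, near-equal medians and direction were set against the scanner values. Sample groups came from the labels. Spots marked as outliers were left out, intensities were scaled by the 75th percentile of each array and log2-transformed, and probes well above background on at least 3 of 12 arrays were kept, the brightest per gene, giving 16183 genes. limma 3.58.1 in R 4.3.3 fitted a mean for each of 4 groups (8 residual degrees of freedom, 2.3 prior), with two-sided tests, Benjamini-Hochberg adjustment over all genes and a threshold of 0.05. The fit was tested on simulated data. The number of arrays limits the precision, and p-values measure the spread between single mice.

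The alternatives were normexp (offset 50) with quantile normalization, median scaling, no filter, the mean over probes, slide as a block and within slides, the tag in the array names, muscle as a covariate, the deposited table with and without cKO mouse 1, the mouse number as a block, and each mouse left out. Normexp used the median spot signal, since the files used here hold no mean signal. The text names each of the 10 genes, Sox4, the genes of each BMP list past the threshold or with the smallest p, up to 3 markers of a cell type by mean level, and the 3 genes most like a gene that was called or had the smallest p. Shh, Lef1, Fgf10, Pdgfra, Dpt, Krt14, Cd3g, Cd3d, Mrc1 and Csf1r were chosen once their values had been seen. The genes and lists were chosen with earlier results of these data known.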

Additional observations from a re-analysis of the deposited data

How the results depend on the processing

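Of the 9 genes, the number called between the experiments in cKO mice moved most: 2 as reported, 1 with slide as a block, 0 within slide 1, 6 within slide 2 (cKO mouse 5 against cKO mouse 4, lone arrays assumed to vary like WT mice 4 and 6), 0 with the array-name tag, with muscle as a covariate, with the authors' deposited table or with the mouse number as a block, and 0 to 2 with a mouse left out (1 without cKO mouse 3, 0 without cKO mouse 4). Outside slide 2 the number called was 0 for the difference of cKO from WT in Exp 1 and for the interaction. In WT mice between the experiments it was 0 to 1 with a mouse left out. The genotype count, averaged or in Exp 2, stayed 0 under all 24 alternatives. Without cKO mouse 3 the adjusted p of Nog was 0.0697, and without cKO mouse 4 it was 0.0666 for Nog and 0.0522 for Grem1. Calls were also lost within slide 1 and with muscle, with slide as a block (Nog -2.31, adjusted p = 0.0722), with the tag (Nog -2.12, 0.0947; Grem1 1.92, 0.0542), in the deposited table (Nog -1.56, 0.182; Grem1 0.90, 0.293) and with the mouse number as a block (Nog -1.65, 0.486; Grem1 1.40, 0.464). In the deposited table the column of cKO mouse 1 followed its own array least (centred r = 0.41), and without it both calls held (-2.30 and 1.49). Mice of the same number did not deviate together (correlations -0.26 to 0.07), so the block is no paired design. With muscle as a covariate, and with the mouse number as a block, 0 of all genes were called between the cKO groups (1615 as reported). Calls lost there are not particular to Nog and Grem1.

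Signs turned for values that were not called, and for no called one; the cause was not tested. For cKO minus WT averaged, they were, within slide 1, Bmp4 0.016, Nog 0.18 and Grem1 -0.0095, with muscle Bmp2 0.067, Bmp4 0.080, Nog 0.0097 and Id1 0.032, within slide 2 Fstl1 0.062 and Id4 0.12, and in the deposited table without cKO mouse 1 Nog 0.048. For cKO minus WT in Exp 1, they were, within slide 1, Bmp2 0.15, Bmp4 0.24 and Nog 0.25, with muscle Bmp2 0.093, Bmp4 0.10 and Bmp7 0.010, and with the replicate block Bmp4 0.12 and Bmp6 0.018. In Exp 2 they were Bmp2 0.022 and Id1 0.025 with normexp, Bmp2 0.12, Bmp7 0.020, Id1 0.095 and Id2 0.077 within slide 2, Id2 0.14 with the tag, Bmp2 0.041, Bmp4 0.056 and Id1 0.085 with muscle, Nog -0.12 and Grem1 0.25 in the deposited table, Bmp2 0.011, Bmp4 0.010 and Id1 0.15 in that table without cKO mouse 1, and Nog -0.063, Id1 0.076 and Id2 0.12 with the replicate block. The Nog interaction was 0.14 within slide 1. For Exp 1 minus Exp 2, Id2 in WT was 0.090 with the tag and 0.20 with the replicate block, and in cKO mice Bmp7 was 0.28 within slide 1, 0.021 with the tag and 0.18 in the deposited table, and Id1 0.12 within slide 1. With a mouse left out, averaged differences ran from -0.20 to 0.070 for Bmp2, -0.17 to 0.093 for Bmp4 and -0.24 to 0.20 for Nog; in Exp 1 from -0.30 to 0.23 for Bmp2, -0.27 to 0.26 for Bmp4, -0.28 to 0.069 for Bmp7 and -0.86 to 0.011 for Nog; in Exp 2 from -0.15 to 0.0071 for Bmp2, -0.13 to 0.0028 for Bmp4 and -0.17 to 0.10 for Id1; between the experiments from -0.19 to 0.10 for Id2 in WT and -0.15 to 0.20 for Bmp7 in cKO mice. Leaving aside the fits within slides, where some groups are 1 mouse, the calls over all genes also moved. They ran from 4 to 122 for the averaged genotype difference (68 as reported), 2 to 56 in Exp 1 (19) and 1 to 21 in Exp 2 (10). The interaction had 0 to 2 (1), and the experiments differed in 0 to 597 genes in WT (136) and 0 to 2324 in cKO mice (1615).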
